A study of Mus musculus with 11 samples.

Results

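The genes described here move iron and heme through the cell, and 9 of them were followed in mouse microglia: Slc11a1, Slc11a2, Tfrc, Ftl1, Fth1, Slc40a1, Cp, Hmox1 and Blvrb. They were chosen by name. Probes were matched to genes by their RefSeq accession, and a gene's level is the mean over its matched probes of the quantile normalised log2 intensity. Probes were matched for 8 of the 9 genes, and all 8 passed the filter on dim probes. Tfrc, which encodes the transferrin receptor, had no matched probe and was not analysed here. The 8 genes stand among 19555 genes tested on 11 single-colour arrays.

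All mice were C57BL/6N. A_FACS (2 arrays) holds microglia sorted from brains of adult females, and NB_FACS (3 arrays) holds microglia sorted from newborns of both sexes. Both sorts kept cells with intermediate CD45 and high CX3CR1 signal after enzymatic digestion in serum, without inhibitors of transcription. NB_Control and NB_Stim (3 arrays each) hold newborn microglia that were shaken off mixed glial flasks fed with L-929 conditioned medium and then kept for 1 day in DMEM/F12 with serum. NB_Stim was given 3 human cytokines as well, TGF-β1 and IL-34 together with CX3CL1, each at 100 ng/mL. The flasks had been seeded with cells pooled from several newborn brains and, by the paper's protocol, were shaken only after weeks in culture. Since only cultured cells were shaken off flasks, the day of culture, the weeks in flasks and the isolation method cannot be told apart. Neither can age and sex in the adult comparison. Adult brains were perfused before dissection, whereas newborns were decapitated.

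The other facts of the series that touch these genes are as follows. Slide 2 held replicate 3 of the newborn groups, while slide 1 carried the remaining 8 arrays. Between 66.9% and 80.6% of probes were well above background, and no spot was saturated. The cells carried microglial transcripts in every group: the summed log2 level of 8 microglial markers was 18.1 to 18.2 in A_FACS, 17.3 to 17.5 in NB_FACS, 15.2 to 16.0 in NB_Control and 17.1 to 17.2 in NB_Stim. Erythroid transcripts differed strongly, with a summed log2 level of 9 markers of 17.2 to 17.6 in NB_FACS and 13.1 to 14.6 in A_FACS, against 8.98 to 9.06 in NB_Control and 9.11 to 9.27 in NB_Stim. In sums of this kind, fewer cells of a type and less RNA per cell cannot be told apart.

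Iron reaches a cell bound to transferrin, through the transferrin receptor, or inside hemoglobin and heme. In macrophages, including microglia, it leaves the endosome or the phagosome through the divalent metal transporters Slc11a2 and Slc11a1, is stored in ferritin shells built of the Ftl1 and Fth1 subunits, and leaves the cell through ferroportin, encoded by Slc40a1, with the ferroxidase ceruloplasmin, encoded by Cp, at its side. Heme is opened by heme oxygenase 1, encoded by Hmox1, which frees iron, carbon monoxide and biliverdin. Biliverdin is then reduced further by a biliverdin reductase. Blvrb encodes biliverdin reductase B, whose place at this step was not tested. Messenger levels are only part of this control, since iron-regulatory proteins act on the ferritin, ferroportin and transporter messengers after transcription.

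**Figure D1:**
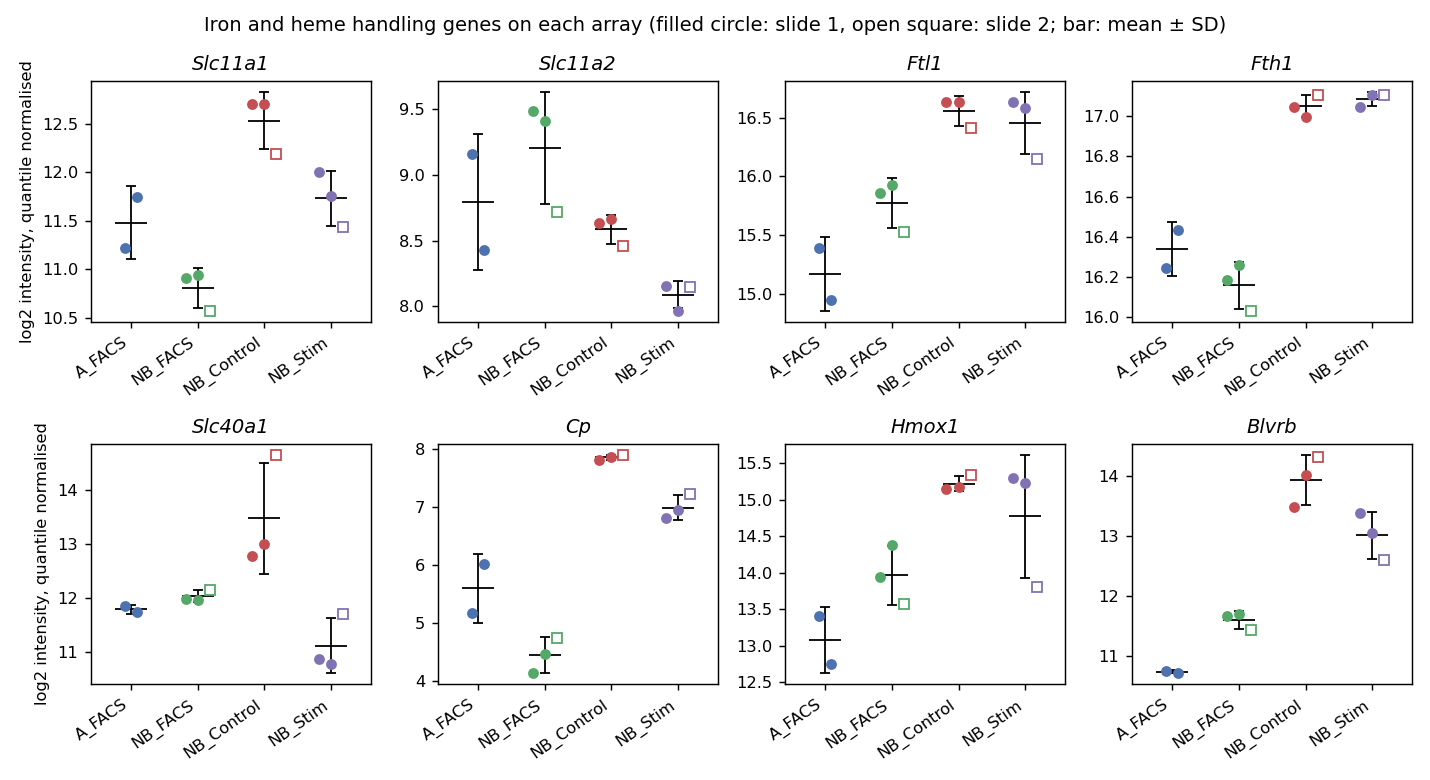
Quantile normalised log2 intensity (vertical axis, own scale per gene) of the 8 measured genes on each of the 11 arrays, by group. Filled circles are arrays of slide 1, open squares arrays of slide 2, and bars the group mean ± SD. For all genes but Slc11a2 the 3 NB_Control arrays lie above the 3 NB_FACS arrays, and for Slc40a1 the 3 NB_Stim arrays lie below the 3 NB_FACS arrays.

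NB_Control was first compared with NB_FACS, to see how the genes differ between cultured and freshly sorted newborn cells. Of the 8 genes, 7 were higher in NB_Control at an adjusted p under 0.05 (limma), and 0 were lower. At an unadjusted p under 0.05 all 8 passed, with Slc11a2 lower. Of all genes, 29.7% were called in this comparison. The groups did not overlap for any of the 8 genes, a property shared by 44.2% of all genes, and the median log2 difference of the 8 was 1.35 against 0.09 over all genes. Markers of other cells and of proliferation also differed between these groups, some higher and some lower. The border macrophage sum was 13.5 to 13.8 in NB_FACS and 15.4 to 16.4 in NB_Control (2 of 7 higher and 3 lower), and the fibroblast sum was 9.59 to 10.03 and 13.6 to 14.0 (4 of 6 higher). The proliferation sum was 14.6 to 14.8 and 11.2 to 11.7 (8 of 8 lower). Their part in the differences was not tested. Between cultures with and without the 3 cytokines (NB_Stim vs NB_Control) 1 of the 8 genes was called, Slc40a1, with 3.41% of all genes called. With a replicate block, which pairs arrays of the same number, 3 were called (Slc40a1, Slc11a1 and Cp). In NB_Stim vs NB_FACS 6 were called, 5 higher and 1 lower, with 31.1% of all genes called. Between adult and newborn sorted cells 2 were called, 1 in each direction, with 22.7% of all genes called. Against A_FACS, 7 of the 8 were higher in NB_Control (40.8% of all genes called) and 5 in NB_Stim (40.2%). These comparisons share arrays. In an F test over the 4 groups all 8 genes passed, with adjusted p from 1.36e-05 for Cp to 0.0178 for Slc11a2, and 48.8% of all genes did.

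**Figure D2:**
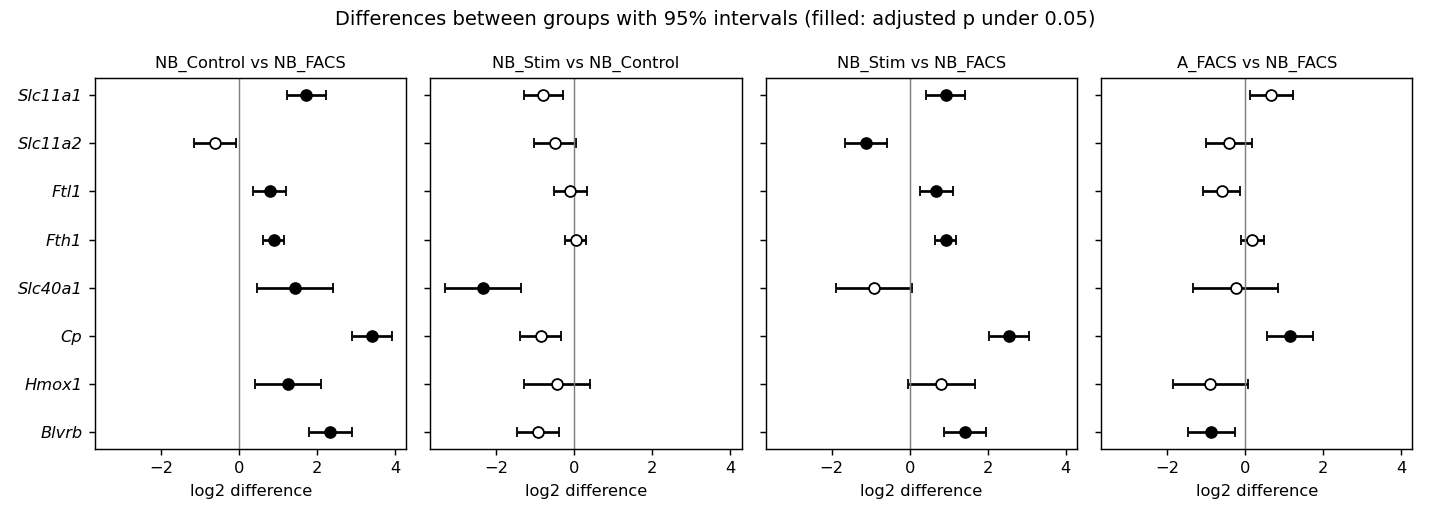
Log2 differences (horizontal axis) between groups for the 8 genes, with limma's 95% intervals. Filled points have an adjusted p under 0.05. Cp has the largest of the 8 differences between NB_Control and NB_FACS (3.41), and Slc40a1 is the only filled point for NB_Stim against NB_Control (-2.35).

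Slc11a1 encodes NRAMP1, a metal pump of the phagosome and lysosome membrane of macrophages. Its log2 level was 10.91, 10.95 and 10.57 in NB_FACS and 12.70, 12.70 and 12.19 in NB_Control. In NB_Stim it was 12.003, 11.756 and 11.432, and in A_FACS 11.22 and 11.75. NB_Control was thus the highest group and NB_FACS the lowest, and the 3 newborn groups did not overlap, while the A_FACS and NB_Stim arrays did. Slc11a1 was 3.30-fold higher in NB_Control than in NB_FACS (log2 difference 1.72 ± 0.22 SE, adjusted p = 0.000297), and within slides 1 and 2 the difference was 1.78 and 1.62. It stayed 1.89-fold higher in NB_Stim than in NB_FACS (adjusted p = 0.0104). Between NB_Stim and NB_Control the difference was -0.80 (adjusted p = 0.0943). With the replicate block this difference passed the test (adjusted p = 0.0103). A_FACS and NB_FACS differed by 0.67 (95% interval 0.12 to 1.23, adjusted p = 0.0817), and the groups did not overlap. With the slide as a block the difference was 0.53 and passed (adjusted p = 0.0393).

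Slc11a2 encodes DMT1, which carries ferrous iron out of endosomes. It makes several transcripts that differ at both ends, some of which hold an iron-responsive element near the 3′ end. The array reads it with 5 probes, of 46 to 57 bases. Because these probes went in different directions, their first 30 bases are shown, 5′ to 3′ as deposited. No pair of them shared more than 7 bases in a row, so that each reads its own stretch. Which probe reads which transcript end was not tested.
MMXS42221: gcgtgtgcaggtagtgaagctttttggttt
MMXS01811: gtccctcaggcttgtgtctgcacttctggg
MMXS13635: ggaagcgttttttggctttctcatcactat
MMXS38139: aaccctgcctacagcaactcatccctccca
MMXS33755: acagggtgtgaagaaatcgtccctgggttt

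The mean over the 5 Slc11a2 probes was 9.49, 9.41 and 8.72 in NB_FACS, 8.64, 8.67 and 8.46 in NB_Control and 8.15, 7.97 and 8.15 in NB_Stim. It was 9.16 and 8.43 in A_FACS. The level was lowest in NB_Stim, whose arrays lay below all others. NB_Stim was 2.17-fold lower than NB_FACS (log2 difference -1.12 ± 0.24 SE, adjusted p = 0.00558), the only fall among the 6 genes called in that comparison. The difference was -1.39 within slide 1 and -0.57 within slide 2. NB_Control against NB_FACS gave -0.62 (adjusted p = 0.0805), and -0.80 and -0.26 within slides 1 and 2. With the replicate block the adjusted p was 0.0358, so that all 8 genes were then called in this comparison.

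This mean hides a split between the Slc11a2 probes. Probe MMXS42221 read 9.35, 9.59 and 9.13 in NB_FACS and 10.74, 10.73 and 10.48 in NB_Control, a difference of 1.29. Probe MMXS33755 read 7.74, 7.49 and 6.49 in NB_FACS and 5.02, 5.05 and 4.66 in NB_Control, a difference of -2.33. For both probes the 2 groups did not overlap. Probes MMXS13635 and MMXS38139 were lower in NB_Control as well, by differences of -1.18 and -0.71 and without overlap, and probe MMXS01811 overlapped (-0.17). Between NB_Stim and NB_FACS the split remained, with MMXS42221 higher by 0.52 and the other 4 probes lower, with differences from -2.42 to -0.92, all without overlap. Between NB_Stim and NB_Control all 5 probes were lower in the mean, with differences from -0.77 to -0.10, and the groups overlapped for MMXS33755 only. Single probes were not tested, and all 5 were well above background on the 11 arrays.

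**Figure D3:**
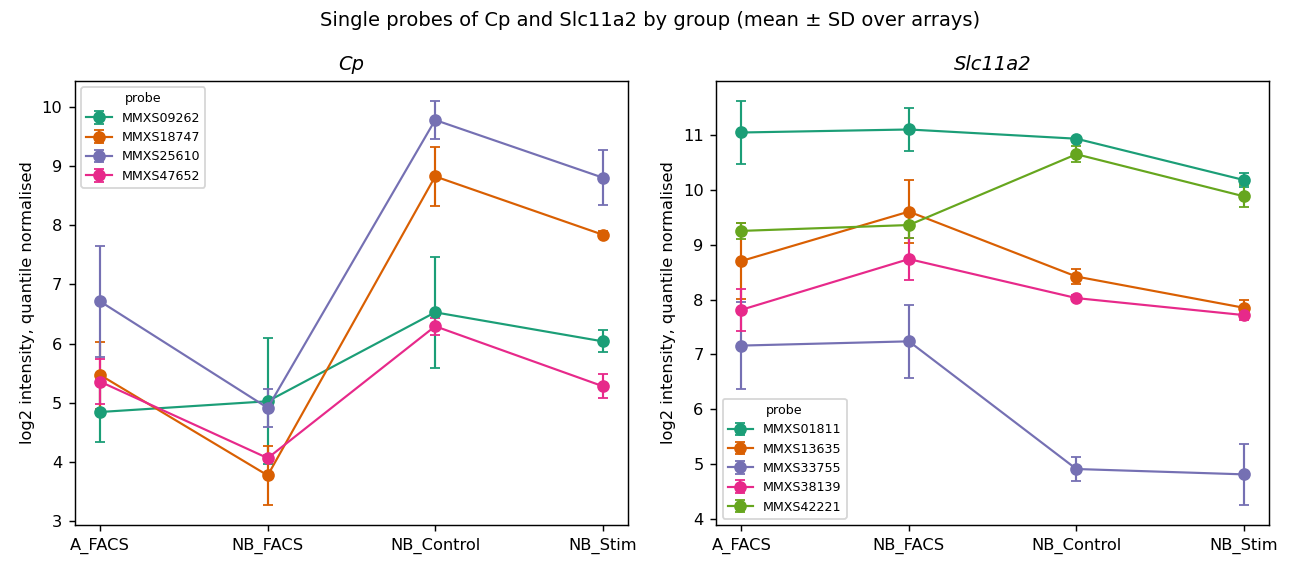
Quantile normalised log2 intensity (vertical axis) of the 4 probes of Cp and the 5 probes of Slc11a2 in the 4 groups, as mean ± SD over arrays. All 4 Cp probes are higher in NB_Control than in NB_FACS in the mean, whereas 1 Slc11a2 probe (MMXS42221) is higher and 4 are lower.

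Ftl1 and Fth1 encode the light and heavy subunits of ferritin, the iron store of the cytosol. The heavy subunit oxidises the iron that enters, and the light subunit helps to form the mineral core. Ftl1 read 15.86, 15.92 and 15.53 in NB_FACS, 16.63, 16.63 and 16.41 in NB_Control and 16.63, 16.58 and 16.15 in NB_Stim. In A_FACS it read 15.39 and 14.95, the lowest values of the 11. Ftl1 was 1.73-fold higher in NB_Control than in NB_FACS (log2 difference 0.79 ± 0.19 SE, adjusted p = 0.0101) and 1.60-fold higher in NB_Stim (adjusted p = 0.02). The call in NB_Stim was lost without NB_FACS replicate 3, NB_Stim replicate 1 or NB_Stim replicate 2 (adjusted p from 0.057 to 0.0783). Both calls were lost when replicates 1 and 2 of each cultured group were averaged (adjusted p = 0.0567 and 0.109). NB_Stim and NB_Control overlapped and differed by -0.11 (95% interval -0.53 to 0.31).

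Fth1 read 16.18, 16.26 and 16.03 in NB_FACS and 16.25 and 16.44 in A_FACS. It read 17.05, 17.00 and 17.11 in NB_Control and 17.05, 17.11 and 17.11 in NB_Stim. Both cultured groups lay above both sorted groups without overlap. Fth1 was 1.85-fold higher in NB_Control than in NB_FACS (log2 difference 0.89 ± 0.12 SE, adjusted p = 0.000372) and 1.90-fold higher in NB_Stim (adjusted p = 0.000291). The cytokines moved it by 0.04 (95% interval -0.23 to 0.30).

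The 2 ferritin genes are so bright that quantile normalisation leaves them little room. By rank among all probes of an array, Fth1 was 2nd to 4th in the 6 cultured arrays and 16th to 40th in the 5 sorted ones. Ftl1 was 10th to 33rd in the cultured arrays, 50th to 89th in NB_FACS, and 107th and 183rd in A_FACS. Arrays that share a rank receive the same normalised value, which is why several values above repeat. With each array scaled to its 75th percentile instead, the difference between NB_Control and NB_FACS was 0.63 for Ftl1 (adjusted p = 0.0421) and 0.78 for Fth1 (adjusted p = 0.00177). The Fth1 probe carries the accession of a non-coding transcript of the gene.

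Adult and newborn sorted cells differed in opposite directions in the means of the 2 subunits, and neither difference passed the test. For Fth1 the difference was 0.18 (95% interval -0.11 to 0.48, adjusted p = 0.374). For Ftl1 it was -0.60 (95% interval -1.07 to -0.13, adjusted p = 0.0671), without overlap. Ftl1 was called under 75th percentile scaling (difference -0.90, adjusted p = 0.0186), with the slide as a block (difference -0.72, adjusted p = 0.00641), on slide 1 alone (adjusted p = 0.0154), and without NB_FACS replicate 3 (adjusted p = 0.048). Red blood cell precursors also make ferritin, and the erythroid sum was lower in A_FACS. Its part in this difference was not tested.

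The bases before an annotated start site of each ferritin subunit gene are shown, from RefSeq on GRCm38.p6. Their part in the levels above was not tested. Capitals mark ATTGG, the reverse complement of the CCAAT box. The Ftl1 stretch is chr7:45459887-45460006 on the minus strand. The Fth1 stretch is chr19:9982526-9982645 on the plus strand, before the later of its 2 annotated starts. It was picked because its window holds the box, which the window of the earlier start does not. The mark in it was thus fixed by the choice.
Ftl1: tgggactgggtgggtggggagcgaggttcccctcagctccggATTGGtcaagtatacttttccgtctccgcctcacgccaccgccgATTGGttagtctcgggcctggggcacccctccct
Fth1: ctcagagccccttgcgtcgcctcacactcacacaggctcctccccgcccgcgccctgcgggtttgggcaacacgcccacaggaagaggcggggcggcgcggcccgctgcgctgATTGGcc

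CCAAT, read on either strand, occurs in 37.4% of the 32851 mouse promoter windows of the same 300 bases (250 before the start and 50 after it), so that it is common. Windows were matched for 5 of the 8 measured genes (Slc11a1, Cp, Blvrb, Ftl1 and Fth1), 8 windows in all, and 3 of these 8 hold it (Ftl1, Fth1 and Cp). TGANNNNGC, a loose form of the antioxidant response element that NRF2 binds, occurs in 41.3% of all windows and in 3 of these 8 (Slc11a1 and both Blvrb windows). The stricter TGACNNNGC occurs in 12.4% of all windows and in 0 of these 8. Both strands were searched. These letters were not in the Ftl1 or Fth1 windows. These are matches of letters only.

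Slc40a1 encodes ferroportin, the only known exporter of iron from mammalian cells. Its log2 level was 11.98, 11.97 and 12.16 in NB_FACS, 12.78, 12.99 and 14.65 in NB_Control and 10.88, 10.78 and 11.71 in NB_Stim. In A_FACS it was 11.86 and 11.74. NB_Control was the highest group and NB_Stim the lowest, and the 2 sorted groups lay between them. Replicate 3 of NB_Control stood well above its group. The sums of border macrophage and fibroblast markers on that array were 15.4 and 14.0, against 16.3 to 16.4 and 13.6 to 13.8 on the other NB_Control arrays.

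Slc40a1 was 5.09-fold lower in NB_Stim than in NB_Control (log2 difference -2.35 ± 0.44 SE, adjusted p = 0.019), the single call among the 8 genes for the cytokines. Within slide 1 the difference was -2.05 and within slide 2 it was -2.94. Without NB_Control replicate 3 it was -1.76 (adjusted p = 0.00956). Without NB_Stim replicate 1 or replicate 2 the adjusted p was 0.0826 and 0.0861, so that the call was lost, with differences of -2.23 and -2.18. It was also lost when only the 2 groups were fitted (adjusted p = 0.0975) or when replicates 1 and 2 of each cultured group were averaged (adjusted p = 0.111). Among markers of other cells, those of border macrophages had a summed log2 level of 15.4 to 16.4 in NB_Control and 14.2 to 15.0 in NB_Stim, where 1 of the 7 tested (Mrc1) was lower at an adjusted p under 0.05. Their part in the Slc40a1 difference was not tested.

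The rise of Slc40a1 in culture was less firmly measured. NB_Control was 2.70-fold higher than NB_FACS (log2 difference 1.43 ± 0.44 SE, adjusted p = 0.033), but the difference was 0.91 within slide 1 and 2.49 within slide 2. Without NB_Control replicate 3 it fell to 0.85 (adjusted p = 0.042), and without any of the 3 NB_FACS arrays the call was lost (adjusted p from 0.054 to 0.0899), as it was when only the 2 groups were fitted (adjusted p = 0.068). NB_Stim lay below NB_FACS on every array, by a difference of -0.91 (95% interval -1.90 to 0.07, adjusted p = 0.148), which passed with the slide as a block (adjusted p = 0.0255). A_FACS and NB_FACS differed by -0.24 (95% interval -1.34 to 0.86), a width that leaves room for a change of either sign.

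Cp encodes ceruloplasmin, a copper enzyme that oxidises the iron leaving through ferroportin, and astrocytes are a known source of it in brain. The array reads it with 4 probes of 50 to 56 bases, which shared at most 7 bases in a row. Their first 30 bases are shown since 2 of them moved far more than the others.
MMXS18747: agactgattcatgccatgcatttgttcgct
MMXS25610: tctttgaccttttccctggaacataccaaa
MMXS47652: aagccagcattccaaagcaaagctcctaac
MMXS09262: tctcccacatttactgtacttctcagactg

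The mean over the 4 Cp probes was 4.13, 4.46 and 4.74 in NB_FACS, 7.81, 7.86 and 7.90 in NB_Control and 6.81, 6.94 and 7.22 in NB_Stim. In A_FACS it was 5.17 and 6.02. The 4 groups did not overlap, in the order NB_FACS, A_FACS, NB_Stim, NB_Control. Cp was 10.6-fold higher in NB_Control than in NB_FACS (log2 difference 3.41 ± 0.23 SE, adjusted p = 6.66e-06), and the difference was 3.54 and 3.16 within slides 1 and 2. In NB_Stim it was 5.84-fold higher than in NB_FACS (log2 difference 2.55, adjusted p = 3.99e-05). The size of both depends on the processing: they were 1.94 and 1.28 under normexp, and 4.86 and 3.89 when the brightest probe alone was read. NB_Stim against NB_Control gave -0.86 (adjusted p = 0.086), which passed with the replicate block (adjusted p = 0.0133).

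Among the Cp probes the difference between NB_Control and NB_FACS ran from 1.502 (MMXS09262, overlapping) over 2.23 (MMXS47652) to 4.86 (MMXS25610) and 5.05 (MMXS18747). MMXS18747 read 3.43, 4.34 and 3.55 in NB_FACS and 9.06, 9.16 and 8.25 in NB_Control. It and MMXS47652 were not well above background on 1 of the NB_FACS arrays, so the dim side is less certain there. Markers of other cells moved in both directions beside this rise. The choroid plexus and ependymal sum was 14.0 to 15.8 in NB_FACS and 10.9 to 11.5 in NB_Control (3 of 5 lower). The endothelial sum was 12.2 to 12.7 and 9.95 to 10.1 (4 of 6 lower). The sum of 6 fibroblast markers was 9.59 to 10.03 in NB_FACS and 13.6 to 14.0 in NB_Control, with 4 of 6 higher, and that of 6 astrocyte markers 10.9 to 11.02 and 11.6 to 11.8, with 2 of 6 higher (Gfap and Aldoc). Their part in the Cp difference was not tested.

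Cp was also 2.22-fold higher in A_FACS than in NB_FACS (log2 difference 1.15 ± 0.26 SE, adjusted p = 0.0113). Of its probes, 3 were higher in A_FACS without overlap, by 1.29 to 1.80, and MMXS09262 overlapped (-0.18). Without A_FACS replicate 2 the difference was 0.73 (adjusted p = 0.0892, with the lone adult array assumed to vary like the other groups), and under the normexp background correction it was 0.42 (adjusted p = 0.0541). With only the 2 groups fitted the adjusted p was 0.0667. With the stricter filter, which keeps only probes well above background on all 11 arrays, the difference was 0.81 (adjusted p = 0.167). By Tukey's test the adjusted p was 0.108. The sum of astrocyte markers was 9.65 to 10.1 in A_FACS and 10.9 to 11.02 in NB_FACS, with 0 of 6 higher and 3 lower. The choroid plexus and ependymal sum was 14.1 in replicate 1 and 16.9 in replicate 2 of A_FACS. In NB_FACS it was 14.0 to 15.8, with 0 of 5 markers higher in A_FACS and 1 lower. The part of these markers in the adult difference was not tested.

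Hmox1 encodes heme oxygenase 1, the inducible enzyme that opens heme. Its log2 level was 13.93, 14.38 and 13.57 in NB_FACS, 15.15, 15.17 and 15.34 in NB_Control and 15.29, 15.23 and 13.80 in NB_Stim. In A_FACS it was 13.40 and 12.75. All NB_Control arrays lay above all sorted arrays, and replicate 3 of NB_Stim lay among the NB_FACS arrays. Hmox1 was 2.39-fold higher in NB_Control than in NB_FACS (log2 difference 1.26 ± 0.38 SE, adjusted p = 0.0323), with differences of 1.00 and 1.77 within slides 1 and 2. The call was lost without any 1 of 5 of the 6 arrays compared (adjusted p from 0.073 to 0.0885), NB_FACS replicate 2 being the exception, under 75th percentile scaling (adjusted p = 0.0661), and with replicates 1 and 2 of each cultured group averaged (adjusted p = 0.0795).

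In the cytokine comparison the 2 slides gave Hmox1 opposite directions. NB_Stim differed from NB_Control by 0.10 within slide 1 and by -1.54 within slide 2, and by -0.45 over both (95% interval -1.30 to 0.41, adjusted p = 0.692). A_FACS lay below NB_FACS on both arrays, by -0.89 (95% interval -1.84 to 0.07, adjusted p = 0.174). With the slide as a block this difference passed (adjusted p = 0.0487), and within slide 1 it was -1.08 (adjusted p = 0.0162).

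Blvrb encodes biliverdin reductase B, which is also abundant in red blood cells. Its log2 level was 11.66, 11.70 and 11.42 in NB_FACS, 13.48, 14.01 and 14.31 in NB_Control and 13.38, 13.04 and 12.59 in NB_Stim. In A_FACS it was 10.75 and 10.71. The 4 groups did not overlap, in the order A_FACS, NB_FACS, NB_Stim, NB_Control. Blvrb was 5.06-fold higher in NB_Control than in NB_FACS (log2 difference 2.34 ± 0.24 SE, adjusted p = 8.24e-05), and 2.66-fold higher in NB_Stim (adjusted p = 0.00168). The erythroid sum was lower in both cultured groups, and its part in these differences was not tested.

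NB_Stim and NB_Control differed in Blvrb by -0.93 (95% interval -1.47 to -0.38, adjusted p = 0.0792), with -0.53 and -1.72 within slides 1 and 2. Under 75th percentile scaling it was called (difference -1.15, adjusted p = 0.0377). In A_FACS the Blvrb level was 1.82-fold lower than in NB_FACS (log2 difference -0.86 ± 0.27 SE, adjusted p = 0.0467). This call was lost without any 1 of the 5 arrays compared (adjusted p from 0.0611 to 0.164), and without the filter on dim probes (adjusted p = 0.0639). The erythroid sum was lower in A_FACS too, with 5 of 9 markers lower, and its part in the Blvrb difference was not tested.

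Across the 11 arrays the closest pair among the 8 genes was Ftl1 and Hmox1 (Pearson's r = 0.953), followed by Cp and Fth1 (0.933), Ftl1 and Blvrb (0.92) and Hmox1 and Blvrb (0.914). Slc40a1 correlated with the others at 0.148 to 0.442, and Slc11a2 was negative against 6 of the other 7. These values describe 4 groups of arrays and carry no test. Over all genes tested, patterns among the 2 most like each gene were those of Uba6 and Sult2a1 for Hmox1 (r = 0.97 and 0.968), Pld1 for Ftl1 (0.983), and Ralgapb and Parm1 for Fth1 (0.989 and 0.988). For Slc40a1 they were Zfyve16 and Rab3gap2 (0.949 and 0.932), for Slc11a1 Rras and App (0.976 and 0.974), and for Slc11a2 Spred1 and Tnfrsf11a (0.964 and 0.961). For Cp they were Dpp8 and Erich1 (0.986 and 0.985), and for Blvrb Taldo1 and Prdx1 (0.986 and 0.985).

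A list of 62 further iron and heme genes was set beside the 8, of which 55 were tested. Tfr2 and Slc39a14 had no matched probe, and the filter removed Cybrd1, Heph, Hjv, Tmprss6 and Hmox2. In culture (NB_Control vs NB_FACS) 14 of the 55 were higher and 8 lower, with a median log2 difference of 0.29. Of all genes, 29.7% were called, with a median of 0.09. Steap2, Steap4 and Cd163 were at or near background in 1 of the 2 groups, which bears on their part of the count. Of 10 heme and hemoglobin transport genes, 4 were higher and 1 was lower. Slc48a1, which carries heme out of the lysosome, was 10.9-fold higher (log2 difference 3.44, adjusted p = 6.87e-07), and the heme exporter Flvcr1 was 3.61-fold higher (adjusted p = 0.000109). Cd163, the receptor for hemoglobin bound to haptoglobin, read 5.80, 6.02 and 8.44 in NB_FACS and 3.18, 2.40 and 5.48 in NB_Control, without overlap. It was called lower (adjusted p = 0.0313), but no group other than NB_FACS had it well above background on all arrays (1 of 3 in NB_Control). Having passed the filter through its highest group alone, it is given as a description, with no fold. The call was lost without NB_FACS replicate 3, NB_Control replicate 1 or NB_Control replicate 2 (adjusted p from 0.0877 to 0.117).

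Of 7 iron uptake genes tested, 4 were higher in NB_Control and 1 was lower, where 29.7% of all genes were called. Trf, which encodes transferrin, was 3.69-fold higher in NB_Control (log2 difference 1.88, adjusted p = 2.35e-05). The ferric reductase Steap2 was not well above background on any NB_FACS array. By the processing used above it was at least 5.32-fold higher in NB_Control (adjusted p = 4.83e-05). Over the alternatives its log2 difference ran from 1.05 to 5.26, so this bound does not hold under all of them. For Steap4, another reductase, the difference was 2.42 (adjusted p = 0.0332), with 1 of the 3 NB_FACS arrays well above background. Under normexp it was 0.69 (adjusted p = 0.133), and the call was also lost without any 1 of 5 of the 6 arrays, NB_FACS replicate 3 being the exception. Slc39a8, a carrier of zinc and iron, was 3.98-fold lower (adjusted p = 2.7e-06). Fbxl5, the iron-sensing ubiquitin ligase that acts on iron-regulatory protein, was 2.53-fold lower (adjusted p = 0.00332). Read by its brightest probe alone, Fbxl5 differed by -0.64 (adjusted p = 0.0637).

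**Figure D4:**
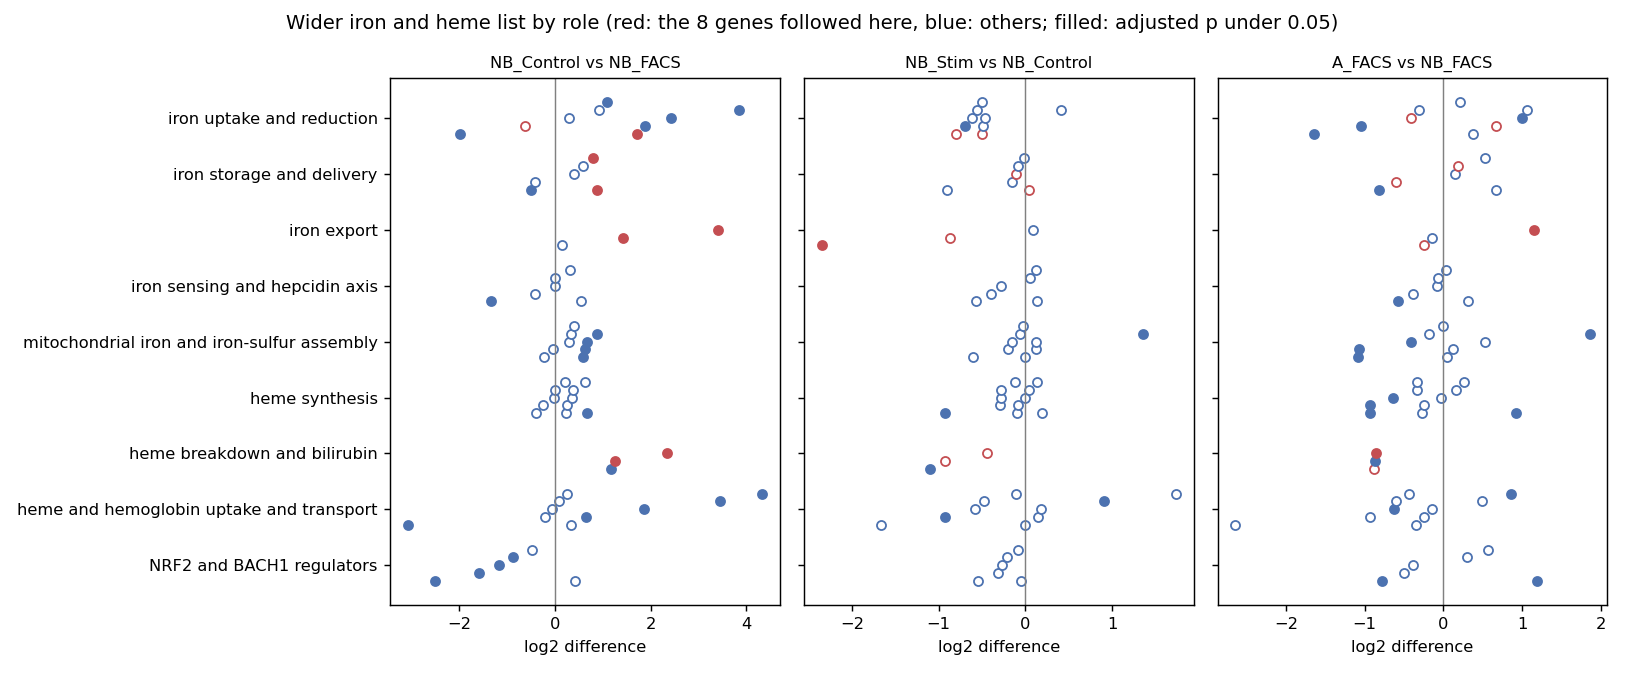
Log2 differences (horizontal axis) of the wider iron and heme list in 3 comparisons, with genes grouped by role on the vertical axis. Red points are the 8 genes followed here and blue points the other 55, and filled points have an adjusted p under 0.05. In NB_Control vs NB_FACS, 14 blue points are filled to the right and 8 to the left.

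NRF2, its inhibitor KEAP1, BACH1 and the small MAF partners are known regulators of Hmox1 and ferritin transcription. Of the 6 such genes tested, 4 were called lower in NB_Control than in NB_FACS, where 2719 of all 19555 genes were called lower. None of the 6 was higher by limma, also at an unadjusted p under 0.05. The 4 were Nfe2l2, which encodes NRF2 (log2 difference -0.88, adjusted p = 0.00229), Bach1, the heme-responsive repressor of Hmox1 (-1.18, adjusted p = 0.000109), and the small MAF partners Maff (-2.51, adjusted p = 9.51e-05) and Mafk (-1.58, adjusted p = 0.00165). Keap1 and Mafg differed by 0.43 and -0.48 without passing the test.

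With cytokines (NB_Stim vs NB_Control) 2 of the 55 genes were higher and 4 lower, where 3.41% of all genes were called. Slc25a37, the mitochondrial iron importer, was 2.56-fold higher (adjusted p = 0.046), and Slc46a1, a folate and heme transporter, was 1.88-fold higher (adjusted p = 0.0438). Both of these calls were lost without any 1 of 5 of the 6 arrays compared, NB_Stim replicate 3 being the exception. Without the filter on dim probes the Slc25a37 difference was 0.59 (adjusted p = 0.699). Blvra, the other biliverdin reductase, was 2.15-fold lower (adjusted p = 0.00384), Slc48a1 1.90-fold lower (adjusted p = 0.00928), the porphyrin transporter Abcb6 1.89-fold lower (adjusted p = 0.0132), and Slc39a8 1.62-fold lower (adjusted p = 0.0109). The Abcb6 call was lost without NB_Stim replicate 1 or 2, and the Slc39a8 call without either of these or NB_Control replicate 2 (adjusted p from 0.0535 to 0.0643). With replicates 1 and 2 of each cultured group averaged, 0 of the 55 genes were called (limma), and 14 had an unadjusted p under 0.05. Against NB_FACS, 10 of the 55 were higher and 11 lower in NB_Stim, where 31.1% of all genes were called. Hp, which encodes haptoglobin, read 11.195, 10.993 and 11.385 in NB_Stim and 3.77, 4.47 and 7.11 in NB_FACS, 67.5-fold higher (log2 difference 6.08, adjusted p = 0.00155). Without single arrays this difference ran from 5.40 to 7.07 (7.07 without NB_FACS replicate 3), under normexp it was 4.35, and 1 NB_FACS array was not well above background. The NB_Control arrays of Hp read 10.64, 10.71 and 7.01. That group was called higher than NB_FACS too (adjusted p = 0.00993), with overlap and with a difference of -0.10 within slide 2. Slc48a1 stayed 5.72-fold and Trf 4.92-fold higher, and Slc25a37 was 3.22-fold higher (difference 0.70 and adjusted p = 0.308 without the filter on dim probes). Steap2 was at least 3.86-fold higher by the processing used above, but its log2 difference ran from 0.87 to 4.93 over the alternatives. Slc39a8, Maff, Mafk and Fbxl5 were 6.45-fold, 6.04-fold, 3.62-fold and 3.34-fold lower. Cd163 was not well above background on any NB_Stim array.

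In A_FACS against NB_FACS, 5 of the 55 genes were higher and 13 lower, with a median log2 difference of -0.18. Of all genes, 22.7% were called, with a median of -0.01. Slc25a37 was 3.63-fold higher (log2 difference 1.86, adjusted p = 0.00429), Mafk 2.29-fold, Trf 2.0017-fold, the heme synthesis enzyme Cpox 1.90-fold and Slc46a1 1.82-fold. The Slc25a37 call was lost without the filter on dim probes (difference 1.35, adjusted p = 0.0943). The Mafk call was lost without A_FACS replicate 1 or NB_FACS replicate 3, the Cpox call without either A_FACS array or NB_FACS replicate 3, and the Slc46a1 call without either A_FACS array or NB_FACS replicate 2 or 3. Among the lower genes were Steap3 (3.14-fold, adjusted p = 0.00111), the iron-sulfur cluster genes Hscb (2.12-fold) and Glrx5 (2.11-fold), Slc39a8 (2.06-fold) and Abcb6 (1.92-fold, adjusted p = 0.0519 without A_FACS replicate 1). Several of these genes serve heme synthesis in red cell precursors, whose markers were lower in A_FACS, and so were proliferation markers, all 8 of them. Their part in these differences was not tested.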

How the data were processed

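RNA was measured on 11 single-colour Agilent arrays of 62976 spots. The authors deposited scanner files made with Agilent Feature Extraction 11 (per the submitters' processing notes), which give a signal intensity for each spot after subtraction of the background, together with a table of the same intensity values, not yet normalised between arrays. For their own work the authors quantile normalised the data, which was followed here. Log2 intensity was computed from the deposited values: repeated spots were averaged without outlier flags (138 probes dropped), and all probes were quantile normalised in limma 3.58.1 under R 4.3.3. Probes were named through RefSeq accessions (GRCm38.p6 tables), which matched 36264 of 60037 probes (60.4%). A probe was kept if 1 or more groups had it well above background on all their arrays. This left 28027 named probes, averaged to 19555 genes. Probe and promoter letters were read with pandas 2.3.3, and figures were drawn with matplotlib 3.10.9.

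Groups and replicate numbers came from the sample titles. Each gene was fitted with 1 mean per group over the 11 arrays (7 residual and 2.69 prior degrees of freedom). Pairwise differences were tested in limma (moderated, two-sided) and called at a Benjamini-Hochberg adjusted p under 0.05 over all genes. Where a gene was not well above background on any array of a group, the fold was computed against the lowest signal well above background. Summed levels of marker lists are log2 of summed intensities. The study defines its replicates as independent, but the labels name no animals or cultures. The number of arrays limits the precision.

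The replicate numbers were checked as pairs. Deviations from the group means of arrays with the same number correlated at 0.112 to 0.489 over genes in the newborn groups, so the replicate block was fitted. Number 3 is also slide 2, and numbers 1 and 2 correlated across groups as well. Alternatives were 75th percentile scaling, normexp background correction with an offset of 50, no filter and a stricter filter (all 11 arrays), the brightest probe per gene, the deposited value table, a fit of the compared groups alone, slide and replicate blocks, cultured replicates 1 and 2 averaged, slide 1 alone, the methods' ANOVA with Tukey's test, and leaving out each array. Where this left 1 adult array, that array was assumed to vary like the other groups. Tukey's p, already corrected over the pairs of groups, was adjusted over all genes as well. The fits were tested on simulated data.

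Named genes were all members, up to the 5 largest rises and 5 largest falls among called genes of the wider list without overlap in each of 4 comparisons, and the 2 genes most like each member by Pearson's r. For Ftl1, 1 of these 2 is not reported here. Nfe2l2, Bach1, Keap1 and Mafg lie outside that rule and were named after their values were seen. The members, the lists and the tests were chosen with earlier results of these data known.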

Additional observations from a re-analysis of the deposited data

How the results depend on the processing

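The rise of Fth1, Slc11a1, Cp and Blvrb in NB_Control over NB_FACS was called under each of the 18 alternatives run for them. Counts of called genes moved with the setting, also over all 19555 genes. Of all genes, 5811 were called in NB_Control vs NB_FACS in the fit used above and 3547 by Tukey's test. In NB_Stim vs NB_Control 666 were called, against 1476 with the slide block, 118 with averaged cultured replicates and 183 by Tukey's test. In A_FACS vs NB_FACS 4434 were called, against 6404 with the slide block and 2014 by Tukey's test. By Tukey's test 4 of the 8 genes were called in NB_Control vs NB_FACS, 3 in NB_Stim vs NB_FACS and 4 in A_FACS vs NB_Control. In NB_Stim vs NB_Control and in A_FACS vs NB_FACS 0 were called. Before the adjustment over genes, 4 and 1 of the 8 had a Tukey's p under 0.05 there. In NB_Stim vs NB_Control the count was 3 with 75th percentile scaling, the slide block or the replicate block, 2 with normexp, and 0 with averaged cultured replicates (limma, 4 at an unadjusted p under 0.05). Without single arrays it ran from 0 to 2, being 0 without NB_Stim replicate 1 or 2. In A_FACS vs NB_FACS the count was 1 with normexp, no filter, the stricter filter, only the groups compared or averaged cultured replicates, 5 with the slide block and 4 on slide 1 alone. Without single arrays it ran from 0 (without A_FACS replicate 2) to 4 (without NB_Stim replicate 3). Of the wider list, 3 genes were called in NB_Stim vs NB_Control without the filter or with only the groups compared, 10 with the slide block, 0 with averaged cultured replicates and 2 by Tukey's test, and 2 to 6 without single arrays. In A_FACS vs NB_FACS it was 9 (without A_FACS replicate 1) to 20 without single arrays.

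Among the differences recomputed (those of the 8 genes and of wider list genes in the comparisons for which they were selected), signs turned only where no call had been made. Hmox1 in NB_Stim vs NB_Control was 0.10 on slide 1 alone and ran from -0.71 to 0.039 without single arrays. Ftl1 there was 0.069 under 75th percentile scaling and ran from -0.20 to 0.046. Slc40a1 in A_FACS vs NB_FACS was 0.074 with the slide block. Slc11a2 in A_FACS vs NB_Control was -0.0040 with normexp and ran from -0.16 to 0.57, and Slc11a1 in A_FACS vs NB_Stim ran from -0.52 to 0.015. The causes were not tested. The replicate block turned no sign, and besides the calls given in the text it changed no call of the 8 genes in the newborn comparisons. The 2 or 3 arrays a group limit the precision, and Cp was dim in NB_FACS, where 2 of its 4 probes were not well above background on 1 array.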
